A study of Mus musculus with 21 samples.

Results

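The genes described here encode the proteins of the cornified envelope and its keratohyalin partners: the small proline-rich proteins (Sprr), the late cornified envelope proteins (Lce), the filaggrin-like fused S100 proteins, loricrin and involucrin. They were taken by symbol, as every gene of the count tables whose name begins with Sprr, Lce or Flg, together with Lor, Ivl, Hrnr, Rptn and Tchh. This gave 43 of 24391 genes: 14 Lce1, 6 Lce3 and 1 Lce6 genes, 12 Sprr2 and 4 other Sprr genes, 4 fused S100 genes (Flg2, Hrnr, Rptn and Tchh), and Lor and Ivl. Flg itself was not analysed here.

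Brain, liver and skin RNA of 7 newborn C57BL/6 mice (P0) was sequenced, 1 library per mouse and tissue, 21 libraries in all. The 2 KI mice were heterozygous for a Jak1 knock-in (Jak1 KI +/-), and the 5 WT mice carried no knock-in. Per the study's methods, the KI allele exchanges 1 histidine of the kinase JAK1 for aspartic acid and carries 2 silent changes beside it. KI pups were bred from a mosaic male, because heterozygous mice did not live long enough to breed, and which cells of a tissue gave the RNA was not separated. No control with the silent changes alone was sequenced among these libraries. Between 26549326 and 38388133 reads were counted on genes per library (median 32240708). Reads that aligned to more than 1 place were tallied apart and made up 17.1% to 25.4% of all reads tallied.

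The cornified envelope is the protein shell that replaces the plasma membrane of a keratinocyte as it dies to become a scale of the skin barrier. Transglutaminases crosslink involucrin first and then loricrin, the bulk component, with SPRR and LCE proteins as cross-bridges and late additions. Most of these genes lie side by side in the epidermal differentiation complex, and SPRR2 genes are also known to be induced outside the skin, in stressed or inflamed epithelia. JAK1 passes the signals of interferons and of the IL-6 and IL-4 families to STAT proteins.

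In the annotation of the NCBIM37 (mm9) genome, 40 of the 43 genes were found. All 40 lay on chromosome 3 between positions 91884197 and 93252999. Lor was annotated from 91884197 to 91887064 on the minus strand, Ivl from 92374834 to 92377637 on the minus strand, Hrnr from 93123671 to 93137492 on the plus strand, Sprr2a3 from 92054654 to 92093169 and Sprr2b from 92120627 to 92122007, both on the plus strand.

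Sprr2a3 and Sprr2b were the genes whose counts set KI livers apart, and their sequences decide which reads could be counted. The coding sequences below are those of the NCBIM37 annotation. In Sprr2a1 and Sprr2a3 the capitals mark the bases at which the pair differs, and in Sprr2b and Sprr2d they mark each copy of the 14-base unit GAGCCTTGTCCTCC, which codes for part of the proline-rich repeat.
Sprr2a1: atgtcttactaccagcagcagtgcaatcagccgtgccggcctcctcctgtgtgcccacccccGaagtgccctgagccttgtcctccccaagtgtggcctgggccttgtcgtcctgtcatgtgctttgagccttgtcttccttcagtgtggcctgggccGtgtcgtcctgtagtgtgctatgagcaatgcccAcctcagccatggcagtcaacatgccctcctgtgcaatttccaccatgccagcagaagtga
Sprr2a3: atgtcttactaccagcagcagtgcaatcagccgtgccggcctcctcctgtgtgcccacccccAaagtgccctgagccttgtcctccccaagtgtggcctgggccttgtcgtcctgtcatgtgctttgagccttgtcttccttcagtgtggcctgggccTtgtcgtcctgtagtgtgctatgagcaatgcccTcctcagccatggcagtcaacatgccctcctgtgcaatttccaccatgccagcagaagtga
Sprr2b: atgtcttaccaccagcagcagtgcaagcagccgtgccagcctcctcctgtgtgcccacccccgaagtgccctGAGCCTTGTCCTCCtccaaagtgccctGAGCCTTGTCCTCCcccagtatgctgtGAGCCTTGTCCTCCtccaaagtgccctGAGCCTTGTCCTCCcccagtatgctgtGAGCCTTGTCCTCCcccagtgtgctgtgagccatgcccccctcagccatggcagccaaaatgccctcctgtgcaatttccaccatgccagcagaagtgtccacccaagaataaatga
Sprr2d: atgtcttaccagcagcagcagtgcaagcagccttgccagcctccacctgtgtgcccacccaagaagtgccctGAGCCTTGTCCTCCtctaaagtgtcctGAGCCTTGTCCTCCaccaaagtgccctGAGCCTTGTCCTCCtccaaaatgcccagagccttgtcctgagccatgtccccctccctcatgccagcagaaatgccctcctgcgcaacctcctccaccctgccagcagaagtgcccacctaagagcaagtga
The 252 coding bases of Sprr2a1 and Sprr2a2 were identical. Sprr2a1 and Sprr2a3 differed at 3 of 252 bases, G63A, G159T and A192T, with the Sprr2a1 base first and positions counted from the A of the start codon. The coding sequence of Sprr2b was longer, at 297 bases, and held 5 copies of the unit, against 3 copies in the 258 bases of Sprr2d and 6 in the 327 bases of Sprr2h.

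These identities bear on the counts. Each annotated transcript was cut into all its overlapping windows of 75 bases, and each window was looked up in the genome and in the annotated transcripts. Only 75 of the 3467 windows of Sprr2a1, or 2.16%, were found at 1 place, and the same held for Sprr2a2. For Sprr2a3 the share was 66.4% (430 of 648 windows), with 157 of the 178 windows inside its coding sequence found at 1 place. For Sprr2b it was 100% and for Sprr2d 99.7%. Lor, Ivl, Rptn, Sprr1a and Lce1m also had 100%, while Hrnr, a very long protein of repeated units, had 31.8% and Flg2 had 71.8%. The 13 Lce1 genes with a transcript ranged from 86.1% to 100%. A count of 0 for Sprr2a1 and Sprr2a2, which was found in every one of the 21 libraries, is therefore no measure of their expression, and the counts of Sprr2a3 and Hrnr understate theirs.

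**Figure D1:**
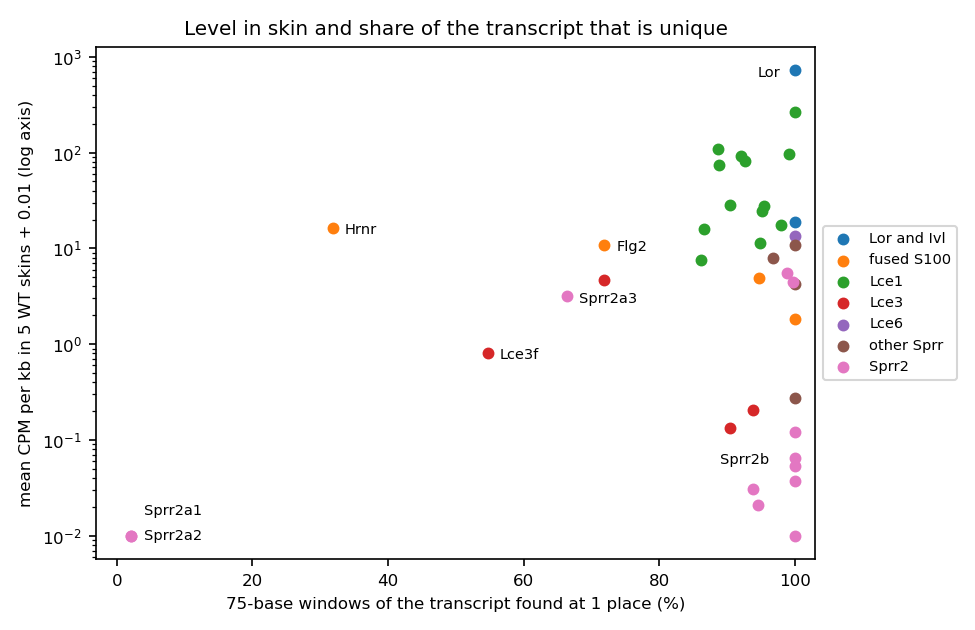
Each point is 1 of the 40 genes with a transcript; the x axis gives the percentage of its 75-base windows found at 1 place, and the y axis (log) the mean CPM per kilobase of exon in the 5 WT skins plus 0.01. Sprr2a1 and Sprr2a2 lie on top of each other at 2.16% and no counts, and Lor, at 100%, is the highest.

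The 250 bases before each gene's start were taken from the RefSeq promoter table (GRCm38.p6), which held 40 of the 43 genes. The promoters of Sprr2a3 and Sprr2b, which were high in KI livers, and of Sprr2d, which had no count in any liver, are shown with motif matches in capitals.
Sprr2a3 promoter, chr3:92285054-92285303, plus strand: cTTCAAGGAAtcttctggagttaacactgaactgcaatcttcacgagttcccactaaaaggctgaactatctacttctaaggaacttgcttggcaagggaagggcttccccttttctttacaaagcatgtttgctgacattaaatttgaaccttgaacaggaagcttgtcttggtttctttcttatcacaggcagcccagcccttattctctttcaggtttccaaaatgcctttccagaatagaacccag
Sprr2b promoter, chr3:92316455-92316704, plus strand: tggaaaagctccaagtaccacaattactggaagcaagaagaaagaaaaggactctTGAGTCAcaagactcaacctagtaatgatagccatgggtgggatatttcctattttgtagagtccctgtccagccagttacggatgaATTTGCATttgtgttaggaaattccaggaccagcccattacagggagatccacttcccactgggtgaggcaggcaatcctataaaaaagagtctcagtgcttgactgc
Sprr2d promoter, chr3:92338890-92339139, plus strand: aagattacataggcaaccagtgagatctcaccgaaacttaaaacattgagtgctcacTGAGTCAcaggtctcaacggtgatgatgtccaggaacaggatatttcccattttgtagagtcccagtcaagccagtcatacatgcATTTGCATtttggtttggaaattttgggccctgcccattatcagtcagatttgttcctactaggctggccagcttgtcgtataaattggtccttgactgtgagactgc
Both strands were searched for 6 motifs: STAT (TTCNNNGAA), AP-1 (TGANTCA), interferon response (GAAA, any 2 bases, GAAA), C/EBP (TTGCNNAA), octamer (ATTTGCAT) and antioxidant response (TGACNNNGC), of which AP-1 and antioxidant matches can share bases. The AP-1 letters were present in 7 of 10 Sprr2 promoters, in 13 of 40 promoters of the cornified envelope genes, in 0 of 20 Lce promoters and in 6.75% of all 32851 promoters of the table. The octamer was present in the same 7 Sprr2 promoters, Sprr2b, Sprr2d, Sprr2e, Sprr2f, Sprr2h, Sprr2i and Sprr2k, in none of the other cornified envelope genes, and in 1.60% of all promoters. In Sprr2b and Sprr2d the octamer began 108 bases before the start, and the AP-1 match 195 and 193 bases before it. Sprr2b and Sprr2d carried the same 2 motifs at like positions. Only Sprr2b had counts in the liver, and the part of these motifs was not tested.

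The Sprr2a3 window held 1 STAT match, TTCAAGGAA, 249 bases before the start, and neither an AP-1 nor an octamer match. The 250 bases of Sprr2a1 and Sprr2a2 were identical, and 222 bases of the Sprr2a3 window equalled theirs after a shift of 28 bases. The RefSeq starts of these copies thus lie at different places in the shared sequence. The RefSeq start of Sprr2a3 is also not the first base given above from the NCBIM37 annotation. In that annotation Sprr2a3 overlaps Sprr2a2, which runs from 92019842 to 92061220. STAT letters were found in 2 of the 40 promoters, against 7.02% of all promoters, the interferon response letters in 0 of 40, against 2.98%, and the C/EBP letters in 4 of 40, against 9.56%. The antioxidant response letters were found in 7 of 40, 5 of them among the 20 Lce promoters, against 10.2% of all. A match of letters is a description of the window and not a bound site.

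In the skin, 40 of the 43 genes had at least 1 read, and 33 had 10 or more in at least 1 library. In the liver, 33 of the 43 had no read in any library, and in the brain 27 had none. The reads on all 43 genes summed to 4711 to 167238 counts per library in the skin, 23 to 264 in the liver and 662 to 1114 in the brain. Levels are also given below as CPM, the count divided by all counts on genes of that library and scaled to 1000000. The lowest skin library lay above the highest library of either other tissue.

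**Figure D2:**
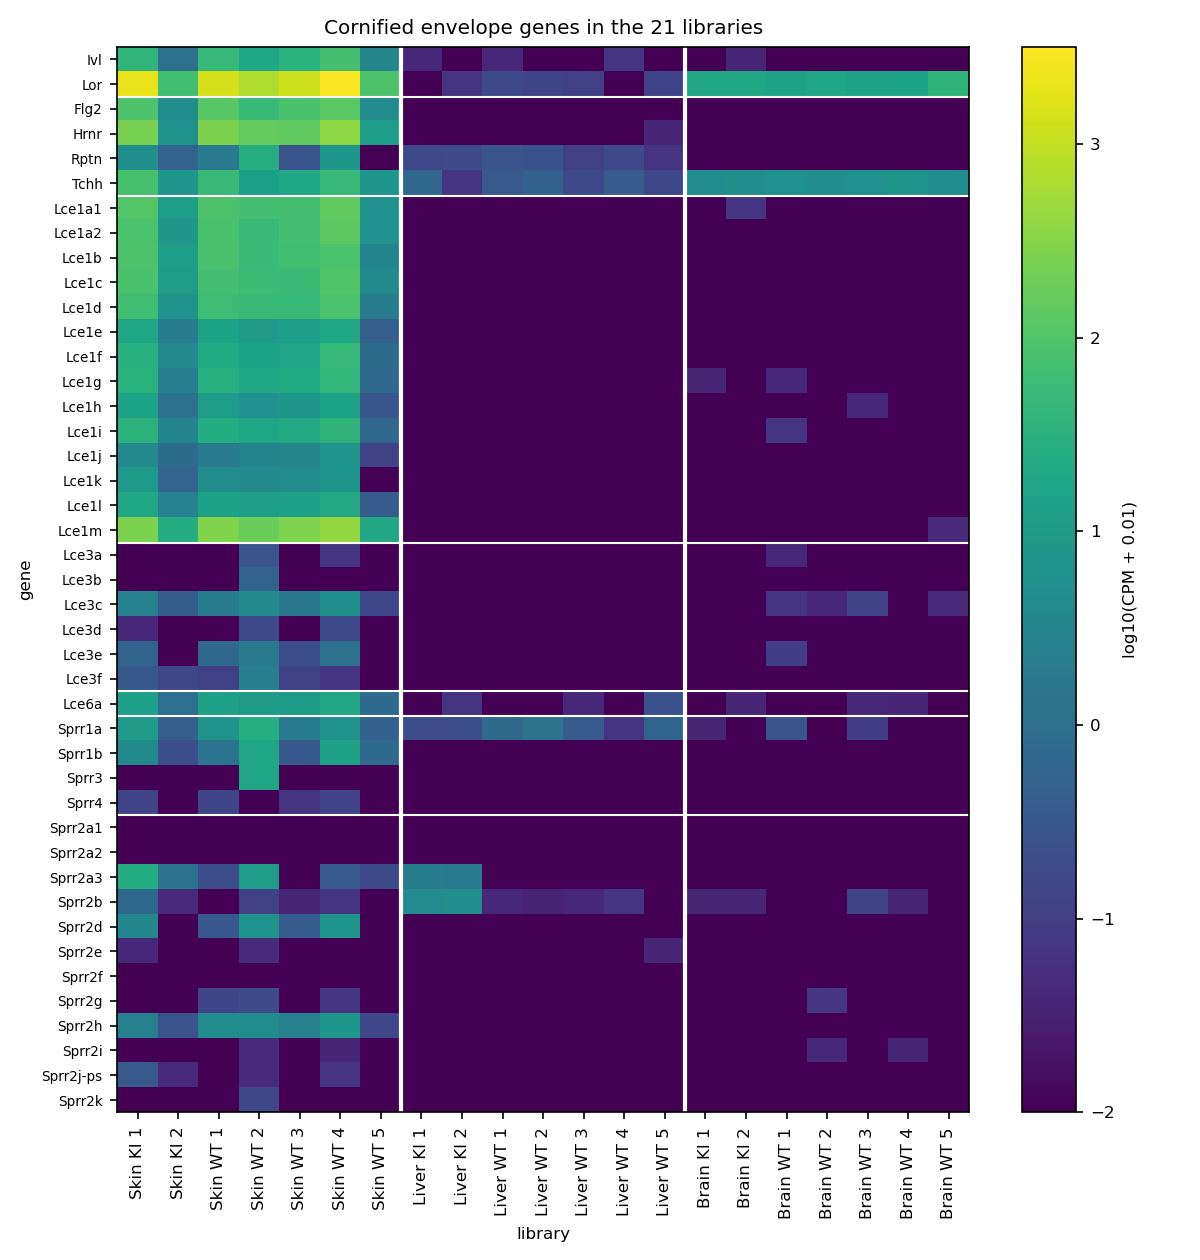
The heat map gives log10(CPM + 0.01) for the 43 genes (rows, grouped by family) in the 21 libraries (columns: skin, liver, brain). Skin KI 2 and Skin WT 5 are darker than the other skins in nearly all rows, Sprr2a3 and Sprr2b stand out in the 2 KI livers, and Lor and Tchh in all 7 brains.

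The tissue labels were checked against marker genes. The 5 hepatocyte markers summed to at least 119302 CPM in every liver, the 5 brain markers to at least 4902 CPM in every brain and the 5 dermal fibroblast markers to at least 46261 CPM in every skin. Of the keratinocyte markers, Krt2 was nearly absent from newborn skin, at most 0.835 CPM.

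The skin libraries did not stand on one footing. In Skin KI 2 and Skin WT 5 the 43 genes summed to 185 and 165 CPM, against 1631 to 4832 CPM in the other 5. Of the 28 genes tested in the skin, 25 were lower in both of these libraries than in each of the other 5, and the median over the 28 genes of the ratio between the medians was 12.9. Keratin genes of the living epidermis moved with them. Krt1, the keratin of the spinous layer, was at 100.7 and 183 CPM, against 978 to 5733 CPM in the other 5, and Krt5, the keratin of the basal layer, at 435 and 694 CPM, against 1121 to 2501 CPM. The dermal collagen gene Col1a1 was not low, at 27098 and 30530 CPM, against 19646 to 24530 CPM. In bulk tissue, fewer keratinocytes and less of these RNAs per keratinocyte cannot be told apart. One of the 2 libraries is KI and the other WT.

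Skin WT 2 stood apart in another way. Krt13, a keratin of internal squamous linings such as the oesophagus, was at 84.4 CPM there and at most 0.396 CPM in every other skin library. Of the other markers of such linings, Krt4 and Crnn were also highest there (86.5 and 4.11 CPM). Krt78, at 36.6 CPM, and Rhcg, at 0.070 CPM, were not. Of the markers of bile duct cells, Krt19 and Cftr were highest there (171 and 6.79 CPM), while Sox9 and Spp1 were not (28.7 and 1.88 CPM). The part of these cells in the results was not tested, and results are given below with and without these libraries.

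**Figure D3:**
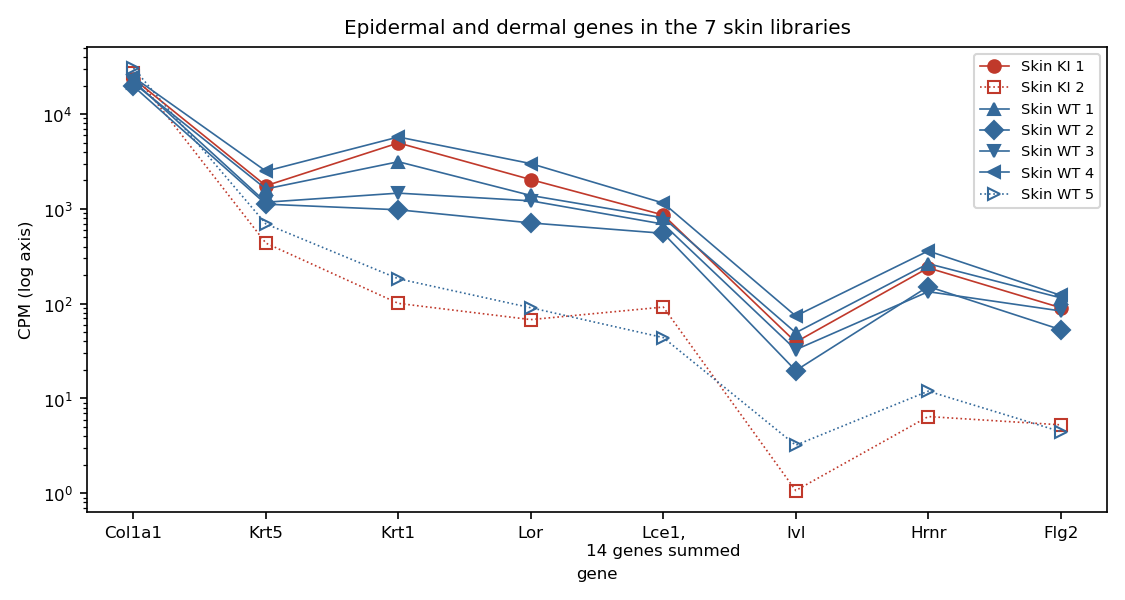
CPM (log axis) of 8 genes or sums in the 7 skin libraries, KI in red and WT in blue. Open symbols and dotted lines mark Skin KI 2 and Skin WT 5, which lie with the others for the dermal gene Col1a1 and below them for Krt5, Krt1, Lor, the summed Lce1 genes, Ivl, Hrnr and Flg2.

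Loricrin was the most abundant of these RNAs in newborn skin both by counts and per kilobase. Its counts were 65496 and 1971 in the KI skins and 41912, 20425, 42438, 103981 and 2594 in the WT skins (replicates 1 to 5). Both groups held 1 library far below the others, and they overlapped. Lor made up 36.8% to 62.2% of the reads of the 43 genes in a skin library. Per kilobase of exon, its mean level in WT skin was 722 ± 612 CPM (SD, n = 5). Next in the order of levels per kilobase came Lce1m, at 263 ± 161 CPM, then Lce1a1 at 110 ± 69.7, Lce1a2 at 95.8 ± 63.3, Lce1b at 93.1 ± 53.5, Lce1c at 81.6 ± 49.8 and Lce1d at 74.05 ± 46.9 CPM (SD, n = 5). Neighbours in this order did not differ beyond these spreads. The Lce1 genes split into this high group of 6 and a lower group, from Lce1i at 28.3 ± 18.8 down to Lce1j at 7.54 ± 6.86 CPM per kilobase.

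Involucrin, Ivl, an early envelope protein, had 1264 and 31 counts in the KI skins and 1495, 566, 1141, 2567 and 92 in the WT skins. Hornerin, Hrnr, had 7670 and 187 in the KI skins and 7997, 4360, 4670, 12460 and 342 in the WT skins. Filaggrin 2, Flg2, had 2916 and 153 in the KI skins and 3490, 1530, 2926, 4240 and 128 in the WT skins. As for Lor, Skin WT 4 was highest and Skin KI 2 and Skin WT 5 lowest for all 3. Per kilobase, Ivl stood at 18.9 ± 14.4 CPM in WT skin, hornerin at 16.5 ± 11.9 and filaggrin 2 at 10.8 ± 6.92 (SD, n = 5). When only the windows found at 1 place were taken as the length, hornerin came to 52.1 CPM per kilobase, above Ivl at 19.7 and Flg2 at 15.2, so its place in the order rests on how repeats are treated. Trichohyalin, Tchh, which hardens the inner root sheath of hairs, stood at 4.87 ± 3.61 CPM per kilobase (SD, n = 5). Repetin, Rptn, was low, at 1.81 ± 2.74 CPM per kilobase, with 175 and 16 counts in the KI skins and 56, 773, 9, 293 and 0 in the WT skins, the highest in Skin WT 2.

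Lce1m, the leading Lce gene, had 8447 and 729 counts in the KI skins and 8603, 5223, 9473, 13744 and 553 in the WT skins. Lce1h had 491 and 32 in the KI skins and 325, 174, 266, 539 and 8 in the WT skins. Lce1i had 1110 and 89 in the KI skins and 784, 507, 729, 1333 and 18 in the WT skins, and Lce1l 649 and 79 against 408, 335, 440, 719 and 11. In each of these, Skin KI 2 and Skin WT 5 were the lowest libraries, and Skin KI 1 lay within the range of the other WT skins.

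Lce6a, which stands alone in its group, was at 13.6 ± 8.56 CPM per kilobase in WT skin (SD, n = 5). The genes of the Lce3 group were the lowest of the Lce genes per kilobase. Lce3c had 88 and 12 counts in the KI skins and 62, 112, 54, 188 and 4 in the WT skins, and Lce3e had 19 and 0 against 21, 54, 7, 39 and 0. The other 4 Lce3 genes had at most 63 counts in any library. Lce3a, Lce3b and Lce3f were highest in Skin WT 2, the library with Krt13 (8, 16 and 63 counts).

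The SPRR genes were low in newborn skin, and Sprr1a, Sprr1b, Sprr3 and Sprr2a3 were not highest in the library with the most loricrin, Skin WT 4. Sprr1a, an envelope protein known from stressed keratinocytes, had 300 and 13 counts in the KI skins and 212, 782, 69, 221 and 14 in the WT skins. Sprr1b had 134 and 6 counts in the KI skins and 38, 488, 11, 454 and 23 in the WT skins. Sprr3, a gene of internal squamous epithelia, had 516 counts in Skin WT 2 and 0 in each of the other 6 skin libraries. For both Sprr1 genes and Sprr3 the highest library was the one with Krt13. Sprr4 had 4 and 0 counts in the KI skins and 4, 0, 2, 4 and 0 in the WT skins, and neither Sprr3 nor Sprr4 passed the filter on low counts used below.

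Of the Sprr2 genes, Sprr2h was present in every skin library, with 83 and 7 counts in the KI skins and 140, 138, 89, 301 and 4 in the WT skins. Sprr2d had 114 and 0 counts in the KI skins and 9, 194, 13, 273 and 0 in the WT skins. For both, the WT skins spanned the range of the KI skins. Sprr2e, Sprr2g, Sprr2i and Sprr2k had at most 5 counts in any library, the pseudogene Sprr2j-ps at most 11, and Sprr2f had none in the skin.

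Whether the Jak1 KI changed these genes in newborn skin was tested with edgeR's quasi-likelihood test on all genes, and a gene was called below an adjusted p of 0.1 (Benjamini-Hochberg). Of the 43 genes, 28 passed the filter on low counts, and 0 of the 28 were called, higher or lower. Over all 16163 genes tested, 4 were called, a share of 0.0247%, so this skin comparison called almost nothing. None of the 28 genes had an unadjusted p under 0.05, against 467 of all genes above and 271 below 0. For none of the 28 did every KI library lie above, or every KI library below, all WT libraries, which held for 3.98% and 5.85% of all genes. DESeq2 also called 0 of the 28 (0.662% of all genes).

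The fitted log2 fold change (KI against WT) lay below 0 for 24 of the 28 genes, with a median of -0.445, against -0.034 over all genes tested. Its size and its direction changed with the libraries and the settings. Without Skin KI 2, 25 of 32 genes tested lay above 0 and the median was 0.36. Without Skin KI 1, 0 of 31 lay above 0 and the median was -2.91. Without Skin WT 4, 14 of 28 lay above 0 and the median was 0.0025. Without Skin WT 5, 2 of 28 lay above 0 and the median was -0.76. With a block for the replicate number (replicate block), 2 of 28 lay above 0 and the median was -1.17. With KI 1 set against WT 1 to 4, which leaves out both libraries low in epidermal RNA, 17 of 32 genes lay above 0 and the median was 0.054, with 0 called. With the summary of 6 basal keratinocyte markers as a covariate, 17 of 28 lay above 0, the median was 0.26 and 0 were called (0.0557% of all genes). The covariate and the fit of KI 1 alone were added after the values of the libraries were seen.

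The standard errors show how little the 7 skins could resolve. They ran from 0.933 to 2.01 on the log2 scale over the 28 genes. RNA integrity, per the study's methods, was lower in the skin than in the liver samples, and its part in these errors was not tested. For Lor the log2 fold change was -0.27 (standard error, SE, 1.32), for Ivl -0.81 (1.30), for Flg2 -0.64 (1.22) and for Hrnr -0.57 (1.33). Tchh was one of the 4 genes above 0, at 0.66 (0.933), with 2613 and 219 counts in the KI skins and 1640, 371, 685, 1638 and 224 in the WT skins. Rptn was at -1.22 (1.94), Sprr1a at -0.72 (1.43), Sprr1b at -1.50 (1.68), Sprr2d at -0.73 (2.01) and Sprr2h at -1.52 (1.30). Of the Lce genes, the 3 with the lowest unadjusted p were Lce3e at -1.31 (1.60), Lce3c at -0.69 (1.13) and Lce1m at -0.66 (1.09), and the 3 with the highest were Lce1l at -0.016 (1.12), Lce1h at 0.043 (1.21) and Lce1i at -0.12 (1.20). All adjusted p-values from edgeR were 0.999 in this comparison.

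**Figure D4:**
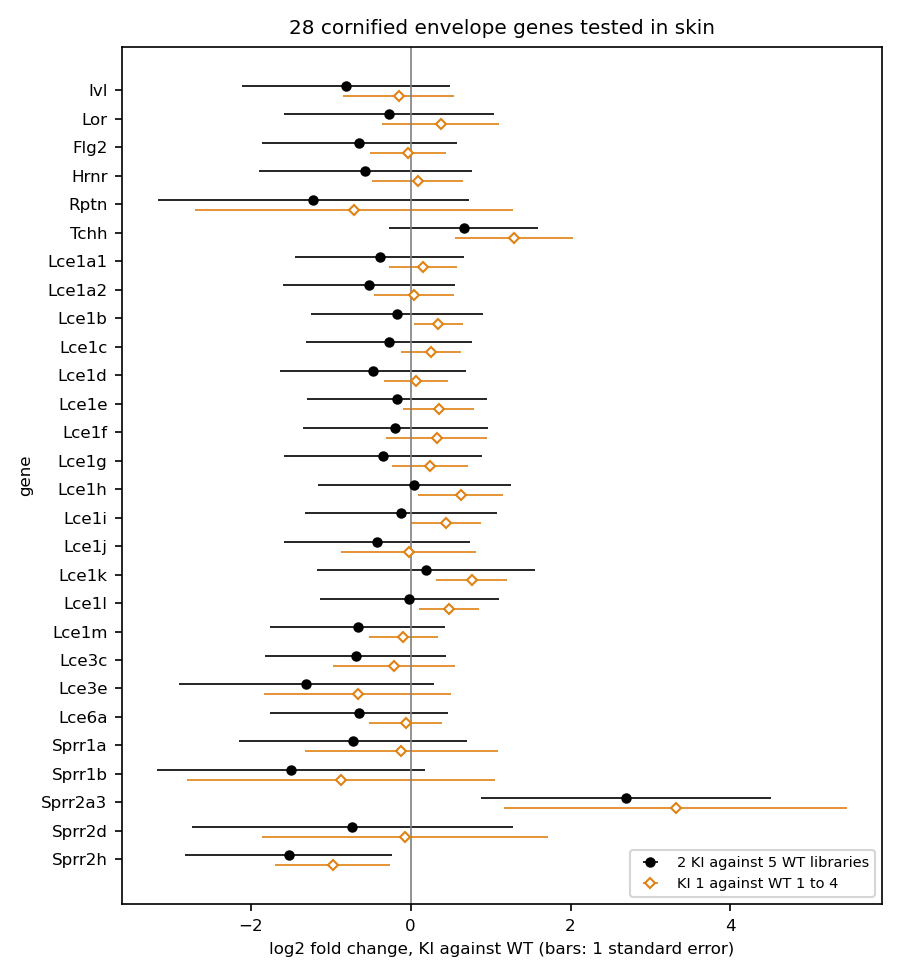
Log2 fold change in the skin, KI against WT, for the 28 genes tested, with 1 standard error. Black circles use all 7 skins and open diamonds KI 1 against WT 1 to 4; 24 of the 28 black points lie below 0, the diamonds lie nearer to 0 or above it for most Lce1 genes, and Sprr2a3 lies farthest to the right in both.

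Of the 28 cornified envelope genes tested in the skin, Sprr2a3 had the largest log2 fold change. Its counts were 829 and 33 in the KI skins and 6, 306, 0, 12 and 5 in the WT skins. Skin KI 1 was the highest library, Skin WT 2 was next and Skin KI 2 followed, although it was low in nearly all other genes of the group. The log2 fold change was 2.69 (SE 1.81, edgeR adjusted p = 0.999), and the groups overlapped through Skin WT 2. Without Skin WT 2 it was 6.20 (SE 1.25, edgeR adjusted p = 0.700), and without Skin KI 1 it was -0.83 (SE 2.84, edgeR adjusted p = 0.999).

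Set against loricrin counts of the same library, which takes out part of the difference in epidermal RNA, Sprr2a3 stood at 12.7 and 16.7 per 1000 Lor counts in the KI skins and at 0.143, 14.98, 0, 0.115 and 1.93 in the WT skins. Skin WT 2 lay between the KI skins on this scale. Per 1000 Krt5 counts, Sprr2a3 stood at 14.7 and 2.61 in the KI skins, at 9.50 in Skin WT 2 and at 0 to 0.252 in the other WT skins, so how close the KI skins lay depended on the gene used as the denominator. Both ratios were formed after the counts were seen and were not tested. Krt6b, a keratin of wounded and hyperproliferative epidermis, was at 233 and 8.68 CPM in the KI skins and 1.61 to 8.39 CPM in the WT skins (log2 fold change 4.88, SE 0.975, edgeR adjusted p = 0.520). Krt16, of the same list, was at 95.8 and 8.48 CPM against 3.46 to 27.5 CPM, and Krt6a at 27.4 and 2.03 against 1.08 to 49.8 CPM. Krt17, the last of the 4 genes of this list, was at 505 and 173 CPM in the KI skins and 228 to 718 CPM in the WT skins (log2 fold change -0.34, SE 0.547, edgeR adjusted p = 0.999). None of the 4 was called. In Skin WT 2, with 306 counts of Sprr2a3, Krt6b was at 8.39 CPM and Krt6a at 49.8 CPM, its highest level in any skin. Krt6a was thus high in both Skin KI 1 and Skin WT 2, against at most 5.23 CPM in the other skins. Krt6b was high in Skin KI 1 only and Krt13 in Skin WT 2 only.

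Sprr2b had few counts in the skin, 22 and 1 in the KI skins and 0, 3, 1, 2 and 0 in the WT skins, and did not pass the filter with all 7 skins. This is 0.359 ± 0.460 CPM (SD, n = 2) in KI and 0.0382 ± 0.0441 CPM (SD, n = 5) in WT skins, and the groups overlapped through Skin KI 2. Nearly all of the KI counts came from Skin KI 1. In the fit of all 21 libraries its log2 fold change in the skin was 3.16 (SE 0.980, unadjusted p = 0.00464, edgeR adjusted p = 0.433), and with KI 1 against WT 1 to 4 it was 3.79 (SE 1.17, unadjusted p = 0.0185, edgeR adjusted p = 1.00). Sprr2b was not called in any of these fits.

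Other genes of cornification were read from lists chosen with earlier results of these data known. Of 20 further envelope, crosslinking and processing genes tested in the skin, among them the transglutaminases Tgm1, Tgm3 and Tgm5 and the protease Casp14, 0 were called higher and 0 lower, with a median log2 fold change of -0.13. Of 17 other genes of the epidermal differentiation complex, mostly S100 genes, 0 were called and the median was -0.12. Of 20 transcription factors tied to cornification, 0 were called and the median was 0.11. Over all 16163 genes tested in the skin, 4 were called.

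The liver gave another picture. There 4 of the 43 genes passed the filter on low counts (Sprr1a, Sprr2a3, Sprr2b and Tchh), and 2 of the 4 were called, both higher in KI mice. Of all 14966 genes tested, 5.57% were called, and 3.89% were called higher. Both also had every KI liver above every WT liver, which held for 13.8% of all genes. The median log2 fold change of the 4 was 2.36 with Sprr2a3 placed at the lower bound given below, against -0.021 over all genes. Sprr2a3 and Sprr2b had at most 2 counts in any WT liver, so both passed the filter only through the KI livers. They were also chosen with earlier results of these data known. The count called, the median of the 4 and the p-values of these 2 genes are thus a description and no support for a rise.

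Sprr2b had 144 and 183 counts in the KI livers and 1, 1, 1, 2 and 0 in the WT livers. That is 4.88 ± 0.574 CPM (SD, n = 2) in KI and 0.0303 ± 0.0221 CPM (SD, n = 5) in WT livers, and the groups were far apart. The log2 fold change was 7.18 (SE 0.449, edgeR adjusted p = 0.00014). With 327 counts against 5 over the groups, the ratio of the rates was 165, with a 95% counting interval of 70.0 to 512, which covers counting error only.

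Sprr2a3 had 69 and 62 counts in the KI livers and 0 in each of the 5 WT livers. The KI livers stood at 1.97 ± 0.250 CPM (SD, n = 2). A count of 0 allows up to 3 counts per library, which is 0.0782 to 0.0997 CPM in the WT livers. The KI mean was 21.96 times the mean of these limits, 0.0896 CPM, a lower bound that leaves out the spread of the KI livers. Sprr2a3 was called higher in KI livers in the test against no change (adjusted p = 0.01 from edgeR). This call was lost without KI replicate 2 (adjusted p = 0.137 from edgeR) and in the fit of all 21 libraries (adjusted p = 0.281 from edgeR). Reads shared with Sprr2a1 and Sprr2a2 are missing from these counts, and whether those copies also rose was not measured.

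The other 10 Sprr2 genes were at or near 0 in the liver. Sprr2e had 1 count in 1 WT liver, and the remaining 9 had 0 in all 7 livers, which for Sprr2a1 and Sprr2a2 says nothing. Sprr2h, which had the most counts of the Sprr2 genes in WT skins 1, 3 and 4, was among the 9, as was Sprr2d. Sprr1a did not follow Sprr2b, with 6 and 7 counts in the KI livers and 26, 49, 11, 2 and 20 in the WT livers (log2 fold change -1.65, SE 0.910, edgeR adjusted p = 0.383). Tchh had 22 and 2 counts in the KI livers and 11, 19, 5, 12 and 5 in the WT livers (log2 fold change 0.27, SE 0.812, edgeR adjusted p = 0.898). Lor, Rptn and Lce6a had at most 9 counts in any liver, and all Lce1 and Lce3 genes, Flg2 and Sprr1b had 0.

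**Figure D5:**
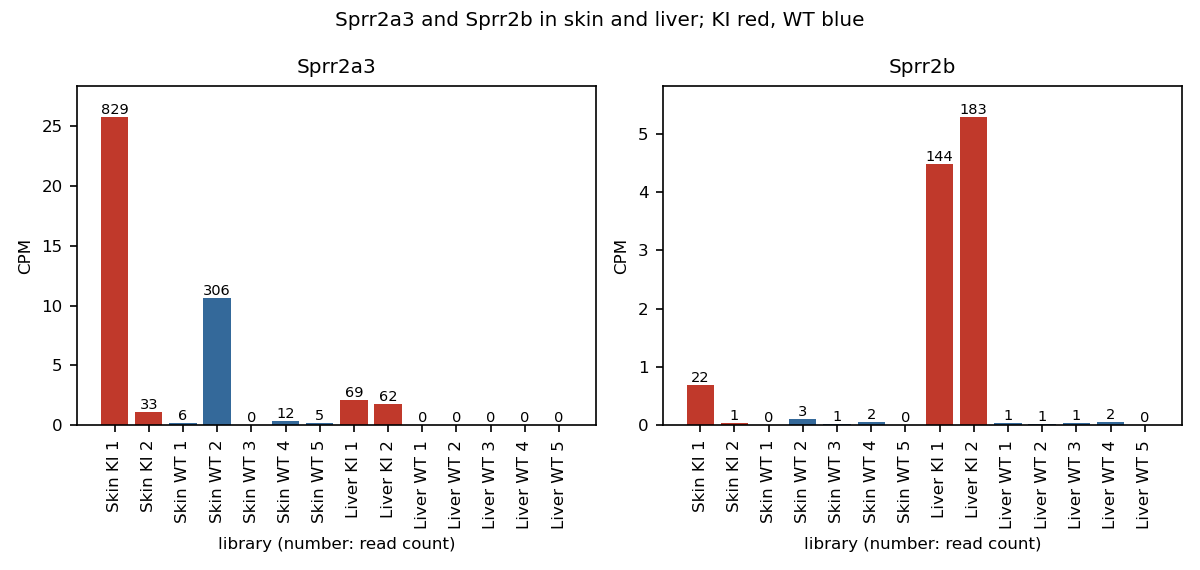
CPM of Sprr2a3 (left) and Sprr2b (right) in the 7 skin and 7 liver libraries, KI in red and WT in blue, with the read count over each bar. Both genes have bars in the KI livers and next to none in the WT livers, while in the skin Sprr2a3 is high in KI 1 and WT 2 and Sprr2b is at most 22 counts.

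Which of the 2 genes led differed between the tissues. Sprr2a3 made up 97.4% and 97.1% of the summed counts of Sprr2a3 and Sprr2b in the KI skins (95% Wilson intervals 96.1% to 98.3% and 85.1% to 99.5%), and 99.0% and 85.7% in Skin WT 2 and Skin WT 4, the WT skins with 10 or more counts of the pair. In the KI livers its share was 32.4% and 25.3% (26.5% to 38.9% and 20.3% to 31.1%). The intervals of the KI skins and KI livers did not overlap, but they cover counting error within a library only and not the spread between mice. Reads that Sprr2a3 shares with its copies are missing from these shares in both tissues.

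Keratinocyte RNA was near 0 in the livers that held Sprr2 reads. In the 2 KI livers Krt5 was at 0.0311 and 0 CPM, Krt1 at 0 and 0.0289 CPM, and the oesophageal Krt13 at 0 in both. Krt14 was at 0.963 and 0.173 CPM in KI livers and 0.289 to 0.886 CPM in WT livers. Krt4 was at 0 and 0.289 CPM in KI livers and 0 to 0.090 CPM in WT livers. The 6 suprabasal keratinocyte markers summed to 0.404 to 1.39 CPM in KI livers and 0.984 to 1.95 CPM in WT livers, nearly all of it Krt10. The 6 basal markers summed to 40.2 to 46.5 CPM in KI livers and 30.5 to 39.9 CPM in WT livers, nearly all of it Itga6, an integrin chain that other cells also make. The 7 markers of bile duct cells summed to 60.9 to 63.3 CPM in KI livers and 113 to 214 CPM in WT livers, and 1 of the 7, Spp1, was called lower (log2 fold change -2.07, SE 0.348, edgeR adjusted p = 0.0191). Krt19, a defining marker of that list, was at 4.97 and 2.98 CPM in KI livers and 3.02 to 11.04 CPM in WT livers. The 11 markers of stomach, pancreas and intestine summed to 28.03 to 35.2 CPM in KI livers and 30.1 to 35.5 CPM in WT livers, and 4 of them were tested. Cpa1, a pancreatic carboxypeptidase, was called higher, at 3.17 and 4.25 CPM in KI livers and 0.145 to 0.993 CPM in WT livers (log2 fold change 2.72, SE 0.475, edgeR adjusted p = 0.0227). Cela1, an elastase, was called lower, at 12.6 and 11.1 against 16.1 to 24.8 CPM (log2 fold change -0.71, SE 0.189, edgeR adjusted p = 0.0894). The pancreatic Pnlip and the gastric Tff1 were at 0 in all 7 livers. The 5 neutrophil markers summed to 5148 to 6284 CPM in KI livers and 3133 to 4147 CPM in WT livers, and the part of these cell types in the result was not tested.

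Of the further envelope and processing genes, 11 were tested in the liver, where 5.57% of all genes were called, and 1 was called. This was Asprv1, the gene of the skin protease that trims filaggrin, at 36.9 and 60.5 CPM in KI livers and 26.9, 22.9, 19.4, 18.7 and 21.3 CPM in WT livers (log2 fold change 1.14, SE 0.176, edgeR adjusted p = 0.0133). The median of the 11 was 0.048. Tgm1, the main envelope transglutaminase, was at 19.7 and 27.5 CPM in KI livers and 14.2 to 19.2 CPM in WT livers and was not called (log2 fold change 0.44, SE 0.159, edgeR adjusted p = 0.198).

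Of the other genes of the epidermal differentiation complex, 10 were tested in the liver and 5 were called, all higher. Over all genes tested there, 3.89% were called higher. The median log2 fold change over the 10 was 0.44. S100a4 had a log2 fold change of 1.34 (SE 0.287), S100a6 of 0.89 (0.185), S100a11 of 0.72 (0.142) and S100a8 of 0.64 (0.142), and S100a9 was the fifth. All of these S100 proteins bind calcium, and S100a8 and S100a9 are abundant in neutrophils and belong to the neutrophil list above. The S100 genes that were called lie in the same complex as the Sprr2 genes, whose Lce, Flg2 and Ivl neighbours had between 0 and 8 counts in any liver.

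Of the transcription factors tied to cornification, 19 were tested in the liver, 1 was called higher and 2 lower, with a median of 0.15. Over all genes tested there, 5.57% were called. Stat3, which JAK1 activates, had a log2 fold change of 0.43 (SE 0.0872, edgeR adjusted p = 0.0377), with 186 and 193 CPM in KI livers and 126 to 150 CPM in WT livers. Ehf, an epithelial ETS factor, was lower (log2 fold change -3.68, SE 0.947, edgeR adjusted p = 0.0801), with 0.249 and 0.260 CPM in KI livers and 0.813 to 5.27 CPM in WT livers. Hopx was also lower (-0.53, SE 0.140, edgeR adjusted p = 0.0855).

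Whether the KI effect differed between liver and skin was tested directly, with all 21 libraries. Of the 43 genes, 30 were tested and 0 were called, against 18 of 18062 genes, or 0.0997%. Of the 30, 21 had 0 counts in all 7 livers, so the test could not call them and it says nothing of their response in the liver. Their standard errors of 47.0 to 9705 on the log2 scale come from dividing by test statistics near 0 and measure no spread. For Sprr2b the KI effect was larger in the liver by 4.04 on the log2 scale (SE 1.58, unadjusted p = 0.0194, edgeR adjusted p = 0.754). For Sprr2a3 the unadjusted p was 0.139 (adjusted p = 1.00 from edgeR). The call of both genes in the liver and of neither in the skin is thus not a shown difference between the tissues. With KI 1 against WT 1 to 4 in both tissues, 0 of 32 genes were called and the same held at an unadjusted p under 0.05.

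In the brain, 2 of the 43 genes passed the filter, and 0 were called by edgeR, which called 0 of 16322 genes (0%), although 457 lay above and 1275 below 0 at an unadjusted p under 0.05. DESeq2 called 604 genes and neither of these. Lor had 657 and 652 counts in the KI brains and 469, 562, 460, 531 and 985 in the WT brains (log2 fold change -0.13, SE 0.413, edgeR adjusted p = 0.931). Its level was 10.7 ± 0.389 CPM per kilobase (SD, n = 2) in KI and 11.3 ± 5.44 (SD, n = 5) in WT brains. Tchh had 167 and 175 counts in the KI brains and 197, 155, 189, 234 and 127 in the WT brains (log2 fold change -0.25, SE 0.223, edgeR adjusted p = 0.729).

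Loricrin RNA was thus counted in every brain library, as was Tchh, while several of its usual partners were at or near 0. Ivl had at most 1 count in any brain, Flg2, Hrnr and Rptn had 0, and the Lce1 genes had at most 2 counts each. Of the 20 further envelope and processing genes, 10 passed the filter in the brain. Among these, Evpl was at 6.89 to 11.6 CPM and Sbsn at 6.29 to 18.2 CPM. Krt1 and Krt10 were also counted in the brains, at 19.2 to 35.6 and 10.2 to 28.3 CPM, whereas Krt5 was at most 0.239 CPM. All windows of Lor were found at 1 place, and whether the reads came from the strand of Lor was not tested.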

How the data were processed

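RNA from brain, liver and skin of 2 KI and 5 WT newborns was measured, grouped by the labels' genotype and tissue. Per the study's methods, TopHat2 placed trimmed reads on mm9, and HTSeq is named in the submitters' processing notes. The authors deposited raw counts per gene symbol, not normalized. The annotation and the counting mode are not given in the sources used here, and the read length of the alignments was taken as 75 bases, with 101 as an alternative. The 5 summary lines (30.4% to 38.1% of all reads tallied) were left out, and CPM are scaled to 1000000 counts on genes.

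KI and WT were compared within each tissue with edgeR 4.0.16 (R 4.3.3): filterByExpr, TMM, glmQLFit and glmQLFTest on all genes, Benjamini-Hochberg adjustment over all genes tested, calls under 0.1. The liver and skin effects were contrasted in 1 fit of all 21 libraries. The standard error of an edgeR fit was the size of the log2 fold change divided by the square root of the F statistic. The alternatives were an adjusted p under 0.05, DESeq2 1.42.0 (size factors and Wald test), no filter, all libraries in 1 fit, a replicate block, each library left out and, for the windows and levels per kilobase, the length used. The basal keratinocyte covariate, the mean log2(CPM + 1) of 6 markers, and the fits of KI 1 alone were added after seeing the data. Nothing says whether mice shared a litter. Windows, exon lengths and coding sequences came from GENCODE vM1 on NCBIM37, promoters from RefSeq (GRCm38.p6), with Python 3.11.15.

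On simulated counts with 200 changed genes, 4-fold changes were recovered at 71% in the skin, 85% in the liver, 70% in the brain and 67% for the contrast of tissues, and 2-fold changes at 34%, 62%, 25% and 18%. There were 10, 14, 10 and 12 false calls. The changed genes were drawn at random from all genes tested, and each gene was set at its mean over the libraries. These rates therefore do not hold for the cornified envelope genes. Their standard errors in the skin ran from 0.933 to 2.01, and 21 of the 30 in the contrast had 0 counts in every liver. Limits of a 0 were taken as 3 counts, and shares carry 95% Wilson intervals for counting error only.

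The genes and the lists were chosen with earlier results of these data known. Named with their values were the genes called, Lor, Ivl, the fused S100 genes, the Sprr genes outside Sprr2, each Sprr2 gene tested in skin or liver, and the 3 Lce genes with the lowest and the 3 with the highest p in the skin. The Lce3, Sprr2 and other genes at low counts were also described by range.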

Additional observations from a re-analysis of the deposited data

Results flagged for a closer look

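In 22 groups of 5 WT libraries with a named gene at 10 or more counts, the highest or lowest library was compared with the others by Dixon's ratio, and 4 were marked, where chance marks about 1 in 20. For 3 of the 4, the library was Skin WT 2. Sprr2a3 was at 10.6 CPM there and at 0 to 0.347 CPM in the other WT skins. Sprr1a was at 27.2 CPM, against 0.489 to 7.004 CPM. Sprr3 was at 18.0 CPM, against 0 in the other 4. The same library held Krt13 and Krt4, and the part of internal squamous epithelium in these values was not tested.

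The fourth was Lor in Brain WT 5, at 37.1 CPM against 14.4 to 18.2 CPM in the other WT brains. Krt1 (35.6 CPM) and Krt10 (28.3 CPM) were also highest there. Without that library the count of cornified envelope genes called in the brain was still 0.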

How the results depend on the processing

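In the skin, brain and contrast of tissues, 0 cornified envelope genes were called under every alternative run, each left-out library included (0 to 0). In the liver the count was 2 in all but 2 settings: 1 in the fit of all 21 libraries and 1 without KI replicate 2 (leaving out 1 library gave 1 to 2). In both it was Sprr2a3 that lost its call, with an adjusted p of 0.281 from edgeR in the fit of all 21 libraries. Sprr2b kept its call in every setting. Sprr2b was chosen with earlier results of these data known and passed the filter in the liver only through the KI livers. Its calls across settings are thus a description and no support for a rise. With KI and WT libraries of the same number compared (replicate block), 0 genes were called in the skin, 2 in the liver, 0 in the brain and 0 in the contrast; same-numbered libraries correlated at 0.0363 and 0.198 in the skin and the numbers are not known to mean a shared litter. The block turned the log2 fold change of Lce1h in the skin to -0.80 and of Tchh in the liver to -0.50.

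The direction of uncalled genes in the skin depended on the libraries. With KI 1 against WT 1 to 4 the log2 fold change was 0.38 for Lor, 0.089 for Hrnr, 0.44 for Lce1i and 0.48 for Lce1l, all turned from below 0. With KI 1 against WT 1, 3 and 4 it was 0.12 for Lor, 0.62 for Rptn, 0.87 for Sprr1a, 0.30 for Sprr2d, 0.28 for Lce1i and 0.37 for Lce1l. With the basal keratinocyte covariate it was 0.27 for Lor, 0.070 for Lce3c, 0.59 for Lce1i and 0.70 for Lce1l. For these turns the cause was not tested. Leaving out each skin library in turn moved the log2 fold change between -4.17 and 0.68 for Lor, -4.99 and 0.15 for Ivl, -3.77 and 0.27 for Flg2, -4.76 and 0.39 for Hrnr, -3.61 and 0.19 for Rptn, -1.84 and 1.53 for Tchh, -4.12 and 0.31 for Sprr1a, -9.53 and 0.26 for Sprr2d and -0.83 and 6.20 for Sprr2a3. The same range was -2.56 to 0.0999 for Lce3c, -3.13 to 0.20 for Lce1m, -2.68 to 0.75 for Lce1i, -2.79 to 0.94 for Lce1h and -2.03 to 0.80 for Lce1l. The lowest value was that without KI replicate 1 for all 14. For Sprr2d it is a fit against a single KI library at 0. Leaving out each liver library moved Tchh between -2.32 and 1.17.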
